A study of Mus musculus with 60 samples.

Results

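Among the 4512 regions obtained by merging the H3K27me3 peaks of 30 CUT&RUN libraries, 364 lay at the promoter of a protein-coding gene, varied between libraries and overlapped none of the 4 deposited lists of regions that differ between Tet1 KO and WT. They were chosen by position and by calls: a region had to overlap the 1.5 kb to either side of a start site, to hold a peak in 2 to 29 of the 30 libraries, and to overlap no row of the lists. Of 736 promoter regions in no list, 356 had a peak in 1 library and 16 in all 30, and neither group was kept. The lists came from comparisons of KO with WT, so values for KO against WT are given as a description, and so is the number of libraries with a peak. The 2223 promoter regions that met the same rule of 2 to 29 libraries but did overlap a list are the comparison used throughout.

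The cells were mouse embryonic stem cell (ESC) lines on a B6129S6F1 background turned into anterior neural progenitors, taken at days 0, 2, 3 and 5, and also at day 5 in medium that held 5 µM XAV from day 2. XAV inhibits tankyrase and with it Wnt signalling. WT, Tet1 KO and Tet1 MUT cells had 2 lines each at every time point, and the labels name the Tet1<tm1Koh> strain for all of them, with CRISPR HDR (homology-directed repair) added for MUT. The MUT lines are clones that carry a catalytically inactive TET1. WT70 and WT72 were used throughout. The KO pair was KO15 and KO25 up to day 2 and KO15 and KO1 afterwards, and the MUT pair was CM59 and CM40 up to day 2 and CM59 and CM69 afterwards, so that 1 line of each pair changed between day 2 and day 3. Neither RNA nor TET1 was measured in these libraries. The genotype and the cell type could therefore not be checked here, and a peak or its absence says nothing about expression.

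H3K27me3 is laid down by Polycomb repressive complex 2 and is found over the promoters of genes that are silent or held in check. In ESCs it lies mostly on CpG-rich promoters of developmental regulators, often together with the active mark H3K4me3, and it is removed from or added to promoters as cells choose a fate. TET1 oxidises methylated cytosine, and it also acts without that activity, which is why a catalytic mutant is compared with a full knockout.

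Libraries held 704 to 3466 peaks, and 3 day 0 libraries stood apart from the others of that day: WT72 with 3450 peaks, KO25 with 2874 and CM40 with 3466, against 1484 to 1911 in the other 3. These 3 libraries weighed heavily on the regions described here. They had a peak in 72.8%, 61.3% and 76.1% of the 364 regions, whereas the other day 0 libraries had one in 19.8% to 31.6%. The listed regions were split in the same way, with 78.1%, 58.4% and 80.2% against 30.5% to 40.9%. Of the 364 regions, 121 (33.2%) had peaks in those 3 libraries and nowhere else, compared with 201 (9.04%) of the listed regions. The library with the fewest peaks, CM59 at day 5 with XAV (704), had a peak in 5.22%. Results over time are therefore given with and without the 3 large libraries. Counts with the same number of peaks taken from every library are given with them or at the end, and for single regions only in part. Read depth is unknown from the peak files.

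The promoter sequences of 8 regions show the starting material for the time courses described next. They are 200 bases directly before the start site, 5′ to 3′ on the strand of the gene, from the reference genome GRCm38.p6, with CG dinucleotides in capitals. Arid3c and Oaf stand for regions marked early, Irs1 for regions marked at day 0, Klf2 for a region marked after day 0, Pou5f1 for regions marked at day 5, the X and Y copies Gm21887 and Gm47283 for regions called more often late, and Gm36079 for the region with the lowest p in MUT against WT.
Irs1, chr1:82291417-82291616, minus strand: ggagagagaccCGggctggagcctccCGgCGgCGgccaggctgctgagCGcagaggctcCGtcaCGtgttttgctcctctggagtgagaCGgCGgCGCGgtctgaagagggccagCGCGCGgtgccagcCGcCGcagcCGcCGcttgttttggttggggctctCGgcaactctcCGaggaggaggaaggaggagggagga
Arid3c, chr4:41730287-41730486, minus strand: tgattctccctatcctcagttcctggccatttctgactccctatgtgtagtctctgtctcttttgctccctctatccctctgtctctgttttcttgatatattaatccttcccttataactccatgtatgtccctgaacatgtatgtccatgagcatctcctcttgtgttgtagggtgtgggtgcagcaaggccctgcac
Oaf, chr9:43239912-43240111, minus strand: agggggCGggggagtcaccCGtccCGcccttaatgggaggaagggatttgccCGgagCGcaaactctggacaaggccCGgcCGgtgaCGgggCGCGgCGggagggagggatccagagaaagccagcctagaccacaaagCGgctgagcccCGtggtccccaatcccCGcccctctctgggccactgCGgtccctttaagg
Klf2, chr8:72318833-72319032, plus strand: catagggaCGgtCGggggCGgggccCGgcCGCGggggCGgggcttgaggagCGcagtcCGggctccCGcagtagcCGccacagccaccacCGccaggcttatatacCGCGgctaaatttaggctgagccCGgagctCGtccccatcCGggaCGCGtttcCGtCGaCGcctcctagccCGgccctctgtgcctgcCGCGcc
Pou5f1, chr17:35505818-35506017, plus strand: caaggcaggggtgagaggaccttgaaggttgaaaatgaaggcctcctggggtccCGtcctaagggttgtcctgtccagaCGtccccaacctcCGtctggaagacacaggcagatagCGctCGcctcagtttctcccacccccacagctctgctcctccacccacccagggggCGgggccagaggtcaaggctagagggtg
Gm21887, chrX:170009459-170009658, plus strand: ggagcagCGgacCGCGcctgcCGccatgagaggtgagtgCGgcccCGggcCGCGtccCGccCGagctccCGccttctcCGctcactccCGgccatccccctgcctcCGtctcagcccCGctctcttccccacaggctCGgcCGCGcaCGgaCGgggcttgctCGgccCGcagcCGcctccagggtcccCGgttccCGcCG
Gm47283, chrY:90784538-90784737, plus strand: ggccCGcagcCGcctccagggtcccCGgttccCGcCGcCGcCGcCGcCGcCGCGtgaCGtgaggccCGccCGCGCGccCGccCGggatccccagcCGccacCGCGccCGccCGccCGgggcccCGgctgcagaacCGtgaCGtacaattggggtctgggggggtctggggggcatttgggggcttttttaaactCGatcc
Gm36079, chr13:120027012-120027211, minus strand: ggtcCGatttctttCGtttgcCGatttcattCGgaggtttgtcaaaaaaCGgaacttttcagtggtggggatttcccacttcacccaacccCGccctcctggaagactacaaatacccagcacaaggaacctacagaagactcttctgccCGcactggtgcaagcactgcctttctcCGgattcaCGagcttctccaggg

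The windows differ widely in CpG content. Arid3c holds 0 CG dinucleotides, Pou5f1 6, Gm36079 9, Oaf 15, Irs1 20, Klf2 25, Gm21887 26 and Gm47283 28. Over the 32851 promoters of the RefSeq table for mouse (GRCm38.p6), the same 200 bases held a median of 5, with quartiles of 2 and 13, 10.6% held none and 5.31% held at least 26. The mark therefore covered both CpG-poor and CpG-rich starts among these regions. At Pou5f1, Oaf, Klf2, Irs1 and Arid3c every peak of the region reached the start site (11, 11, 22, 6 and 15 libraries). At Gm21887 only 1 of 16 did and at Gm47283 only 3 of 18, so for those 2 regions the printed window is mostly outside the peaks. The corresponding window of Matn4, named below, is not shown because annotated exons lie in it.

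The 364 regions belonged to 407 genes, held the start site itself in 356 cases, and covered 2 or more genes in 34. They had a median width of 5768 bp against 7111 bp for the listed regions. In the 300 bases around the start, the median GC content was 64.67%, and the ratio of observed to expected CpG was over 0.6 at 236 regions (64.8%), against 67% and 71.9% for the listed regions. The nearest list region lay at a median distance of 157009 bp. For 23 regions it lay within 5 kb, including Sox9 at 650 bp and Ins2 at 1183 bp, so these 2 border on a listed domain.

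A further feature was sequence that occurs in several copies. The choice of regions did not use it directly, but whether such regions could enter the lists as readily as others was not tested. In 38 of the 364 regions (10.4%), under 50% of all 31-base words occurred once in the genome, compared with 7 of the 2223 listed regions (0.315%). Of the 38, 20 were on chromosome 14, and 19 of these were predicted (Gm) genes between positions 3329162 and 7316796. Others included the interferon gene neighbourhood around Gm13272 and Gm13283 on chromosome 4, the major histocompatibility genes H2-Q6 and H2-Q7, the Fc receptor gene Fcgr3, Nid1, Tmem181a and Dynlt1a, and the copies Gm21887 and Gm47283 on X and Y. Reads from such copies can be placed on any of them, and how the authors' aligner placed them is not given in the sources used here, so calls at these 38 regions are uncertain.

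**Figure D1:**
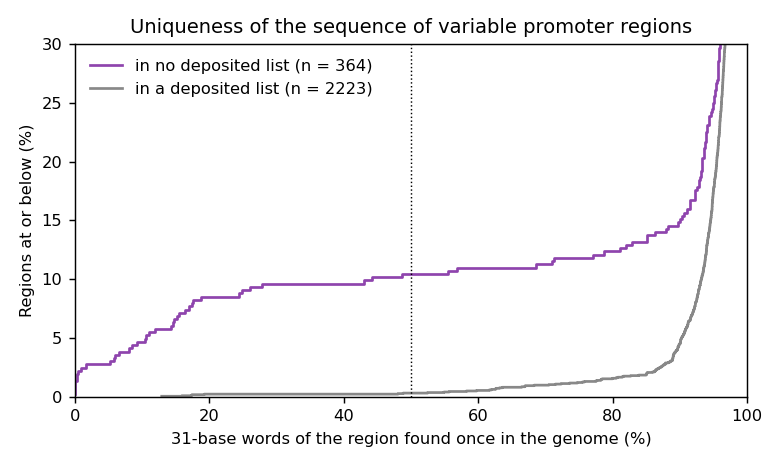
Cumulative share of variable promoter regions (vertical axis, percent, shown up to 30) by the share of their 31-base words that occur once in the genome (horizontal axis, percent), for the 364 regions in no deposited list (purple) and the 2223 regions in a list (grey). At 50% (dotted line) the purple line stands at 10.4% and the grey line at 0.315%.

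Most regions were marked in few libraries. A peak was found in 2 to 4 libraries at 198 regions (54.4%), in 5 to 24 at 134 (36.8%) and in 25 to 29 at 32 (8.79%), against 25.2%, 59.6% and 15.2% of the listed regions. At the lower edge of the rule 112 regions had a peak in 2 libraries, next to 356 outside it with 1. At the upper edge 15 had a peak in 29 libraries, next to the 16 outside it with 30, among them the homeobox genes Alx4 and Nkx6-2.

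**Figure D2:**
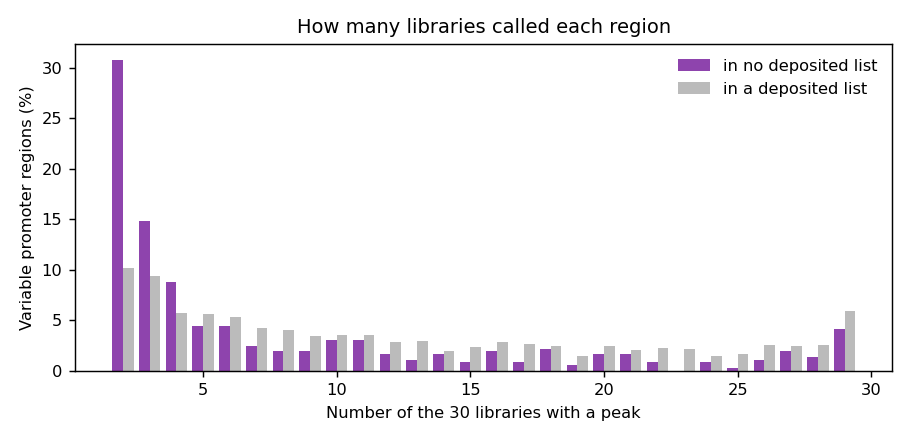
Percent of variable promoter regions (vertical axis) by the number of the 30 libraries with a peak (horizontal axis), for the 364 regions in no deposited list (purple) and the 2223 in a list (grey). The purple bars are highest at 2 to 4 libraries, which hold 54.4% of these regions.

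A peak in 25 to 29 libraries was found at 32 regions, of which 13 were on none of the role lists described below. Among these 13 were Fcgr3, H2-Q10 and the region of Duox2, Duoxa1 and Duoxa2, with a peak in 29 libraries each. The others included genes of signalling pathways and transcription factors. Inhbb, which encodes an activin subunit, had a peak in 29 libraries and was absent from KO25 at day 0 alone. The rank percentiles of its peaks by total signal within their library, where 100 is the strongest peak, ran from 46.4 to 92.5 with a median of 84.9. The Wnt ligands Wnt2b and Wnt2 had a peak in 29 and 28 libraries. Foxd4, a forkhead transcription factor, had one in 29, with a median rank of 84.4. Gfra2, a co-receptor for a neurotrophic factor, had one in 29, and Flt1, a VEGF receptor, in 28. The potassium channel Kcnk15, the glucagon receptor Gcgr and the protocadherin Fat4 also had one in 29. CM59 at day 5 with XAV was the 1 library without a peak at Wnt2b, Kcnk15, Gcgr and Fat4.

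Regions were then described by role, from 11 gene lists. The role counts are given without a count over the listed regions, so the size of a group is a description only. Adhesion, matrix and cytoskeleton genes were the largest group with 37 regions, of which 17 had peaks at day 0 alone. Among all the regions in no list, whatever their role, 149 (40.9%) had peaks at day 0 alone. Whether the share in this group differed from that was not tested. There were 16 regions at G protein-coupled receptor and G protein signalling genes, 14 at transmitter receptor and synapse genes, 12 at other growth factor, receptor and axon guidance genes and 11 at ion channel genes. Transcription factors had 5 regions in the homeobox and POU list (Cdx1, Lbx2, Pou2f3, Pou5f1 and Pax4), 13 in the forkhead, Sox, T-box, GATA and zinc finger list and 7 among basic helix-loop-helix factors, nuclear receptors and others. Wnt, BMP, Nodal, FGF, Hedgehog and Notch signalling had 8, membrane transporters 10, and germline, imprinted and chromatin genes 8. The remaining 223 regions (61.3%) were on none of the lists. Homeobox and POU regions had a peak in a median of 21 libraries, the forkhead and Sox group in 18 and regions without a role in 4.

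The share of the 364 regions with a peak was lower at day 3 than at day 0 in each of WT70, WT72, KO15 and CM59, the lines sampled at both. The share of the listed regions was also lower at day 3 in these lines. It was 30.5% and 11.2% in WT70, 78.1% and 19.7% in WT72, 40.9% and 34.8% in KO15 and 38.7% and 34.9% in CM59. For the 364 regions, the share at day 0 was 46.3% ± 37.5 (SD, n = 2 lines) in WT, 46.4% ± 21 in KO and 50.5% ± 36.1 in MUT. At day 2 it was 29.5% ± 5.63, 24.6% ± 13.4 and 23.6% ± 7.38, and at day 3 it was 10.4% ± 2.72, 21% ± 2.14 and 15.5% ± 0.971. At day 5 it was 17.7% ± 0.194 in WT, 26.9% ± 9.32 in KO and 24.5% ± 21 in MUT, and with XAV 24.9% ± 2.53, 30.1% ± 10.7 and 17% ± 16.7. The means for days 0 and 2 and for days 3 and 5 without XAV differed by 17.5 percentage points (36.8% and 19.3%). With the same number of peaks taken from every library this was 3.32 points, and without the 3 large libraries it was 6.42. No peak was seen at day 3 in any library for 270 regions (74.2%), compared with 1173 listed regions (52.8%). The same held for 1984 (58.6%) of all regions with a peak in 2 to 29 libraries. The 364 regions more often had a peak in only 2 to 4 libraries (54.4%, against 25.2% of the listed regions), and the number of calls was not matched.

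**Figure D3:**
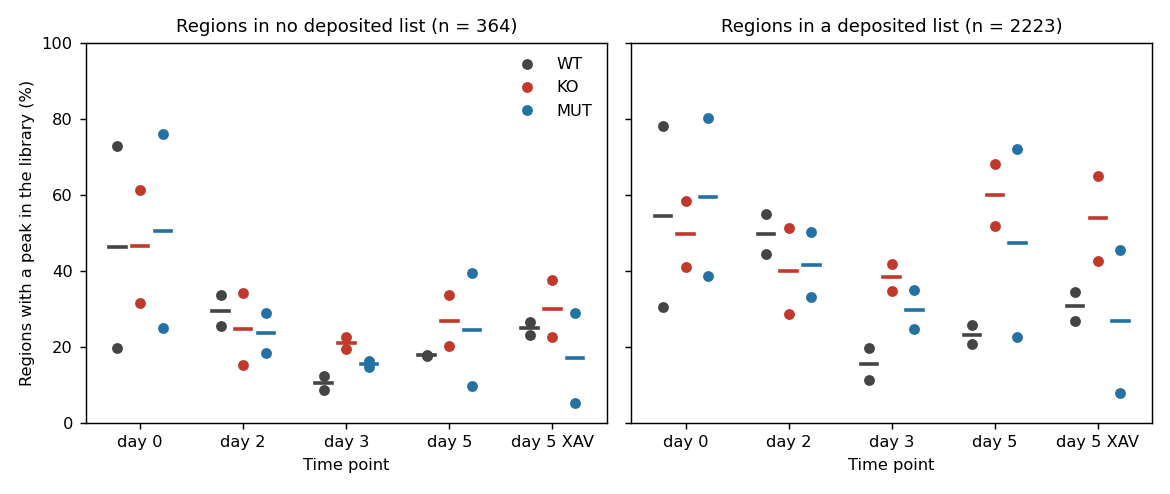
For every library, the percent of regions that held a peak (vertical axis) against the time point (horizontal axis) for the 364 regions in no deposited list (left) and the 2223 in a list (right). Points are libraries, bars are means of the 2 lines, and colours are genotypes. On the left, the 3 large day 0 libraries stand at 61.3% to 76.1% and all libraries of day 3 lie between 8.52% and 22.5%.

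To ask which promoters lost or gained the mark over time, peak calls at each region were compared between the 12 libraries of days 0 and 2 and the 12 of days 3 and 5 without XAV, by an exact permutation test within genotypes, two-sided, with adjustment over all 3124 regions tested. Of the 337 regions in no list that could be tested, 12 (3.56%) were called more often at days 0 and 2, where 3.07% of all regions were, and 2 (0.593%) more often at days 3 and 5, where 0.224% were. The early share is near the background, and the late share rests on 2 regions. Libraries from the same line at several days entered as if they were independent, and nothing in the labels says how cultures were shared. With the cell line as a block, which keeps only WT70, WT72, KO15 and CM59, 0 of the 364 regions and 0 of all regions passed in either direction, with 14 early and 2 late regions at an unadjusted p under 0.05 and a smallest possible p of 0.00154. Without WT70 the early count fell from 12 to 4, and without WT72 also to 4. The late count was 1 without WT70 or CM40 and 0 without WT72 or KO15. Leaving out the 3 large libraries gave 8 early regions and 1 late one. Taking 969 peaks from every library gave 3 early regions in place of 12.

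The 12 early regions were Arid3c with Dctn3, Oaf, Rcsd1, Speg, Ins2, Piezo2, Sox9, Asic4, Apln and 3 clustered protocadherin regions. Oaf had a peak in 11 of 12 early libraries and 0 of 12 late ones (adjusted exact p = 0.00479 by the exact permutation test). Its peaks had rank percentiles from 2.29 to 67.2, with a median of 30.7, and KO15 at day 2 was the early library without one. Speg, a muscle kinase gene, had the same counts (adjusted exact p = 0.00479), with ranks from 1.64 to 78, but only 2 of its 11 peaks reached the start site. Arid3c, a DNA-binding protein gene sharing its region with the dynactin gene Dctn3, also had 11 and 0 but had a peak again in 4 of the 6 day 5 XAV libraries. Rcsd1, an actin capping protein interactor, had 12 and 1 (adjusted exact p = 0.00479).

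Sox9, the transcription factor of cartilage, neural crest and glia, had a peak in 11 of 12 early libraries and in 1 of 12 late ones, KO1 at day 3, where it ranked at the 0.906th percentile (adjusted exact p = 0.022). KO15 at day 2 was the early library without a peak, and the peaks of day 0 had ranks of up to 77.1. Its call was lost without WT70 (adjusted exact p = 0.119), WT72 (0.138) or CM59 (0.0667). Ins2, an insulin gene, had 10 and 0 (adjusted exact p = 0.0123) in a region of 47398 bp. Piezo2, a mechanically gated ion channel gene, had 11 and 1 (adjusted exact p = 0.0123), and the late library was CM59 at day 5.

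The protocadherins, adhesion molecules of neurons encoded in clusters of similar genes, gave 3 early regions. The region of Pcdhb19 and Pcdhb20 had a peak in 10 early and 0 late libraries (adjusted exact p = 0.0123). The region of Pcdha4 and Pcdha5 had one in all 6 libraries of day 0, all 6 of day 2 and 4 of day 3, and in none of the 12 of day 5. The region of Pcdha11 and Pcdha12 had one in 5, 6, 2 and 0. At day 3 those with a peak were KO and MUT libraries at Pcdha4 and Pcdha5 and KO libraries at Pcdha11 and Pcdha12. These day 3 peaks ranked no higher than the 16.4th percentile. WT70 and WT72 had the fewest peaks of that day (969 and 1135, against 1452 to 1877), and genotype was not separated from peak number here.

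The 2 regions called more often at days 3 and 5 were the copies Gm21887 on X and Gm47283 on Y, with 1 and 2 of 12 early libraries against 11 of 12 late libraries each (adjusted exact p = 0.0123 and 0.022). Their peaks were among the strongest of their libraries, with median ranks of 98.7 and 97.5. Both are among the 38 multi-copy regions, and the 2 calls cannot be told apart as events on 1 chromosome or the other.

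**Figure D4:**
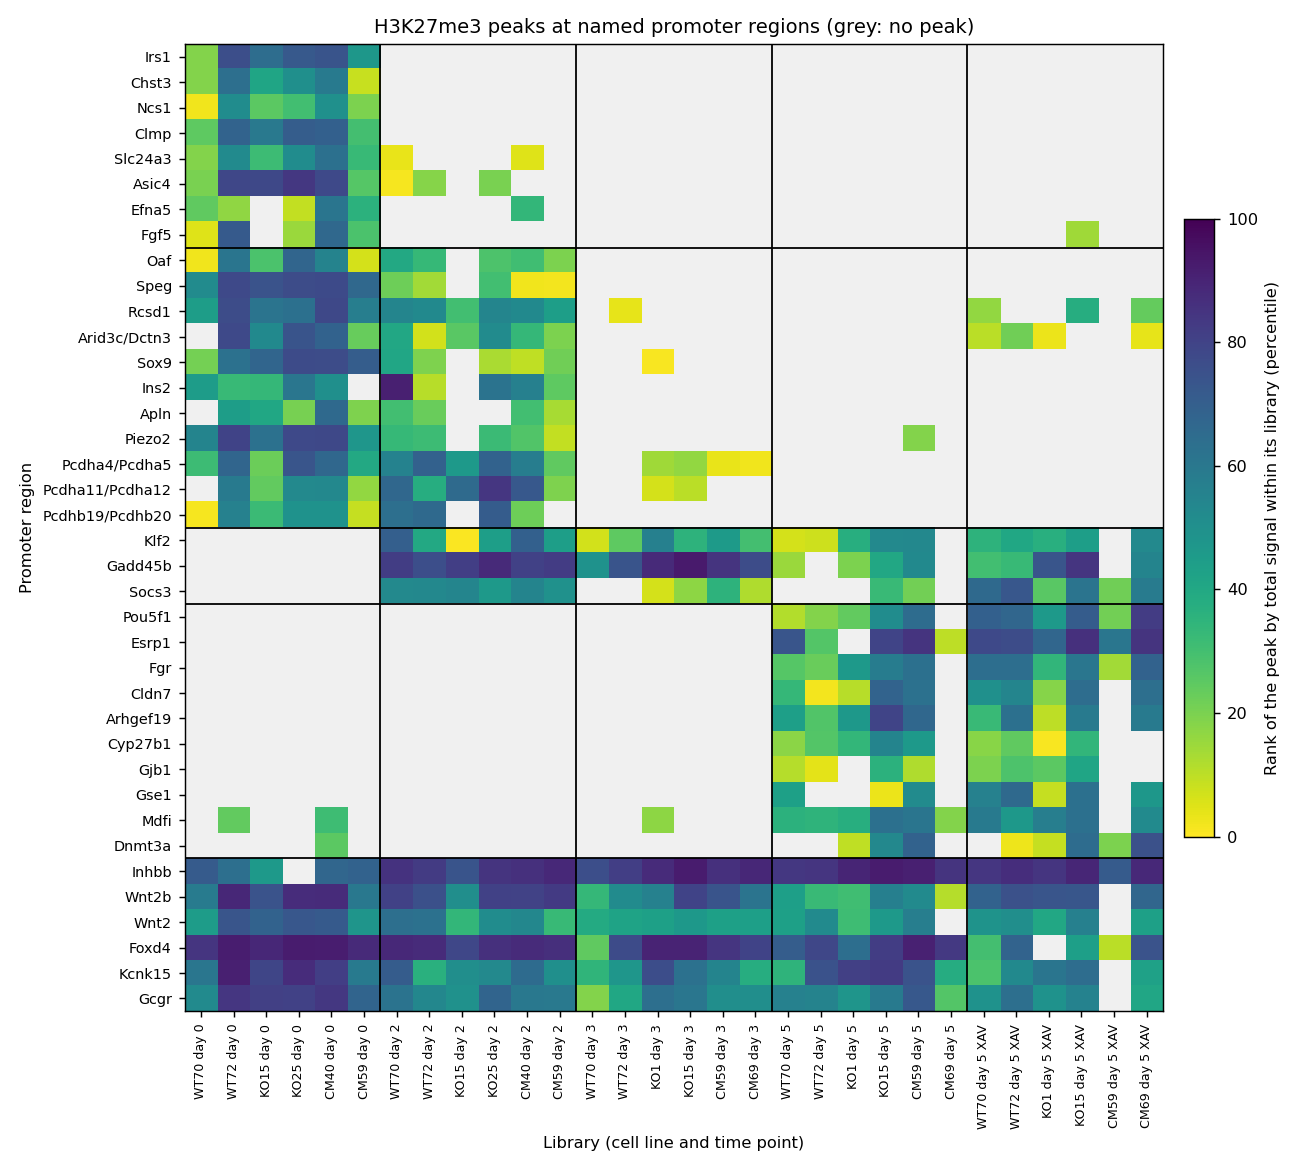
H3K27me3 peaks at 38 named promoter regions (rows, grouped by the time course seen in the calls) in the 30 libraries (columns, by time point). Colour is the percentile of the peak by total signal within its library and grey is no peak. Irs1, Chst3, Ncs1 and Clmp have peaks in all 6 day 0 libraries alone, and Pou5f1, Esrp1 and Fgr in 11 of the 12 day 5 libraries alone.

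Further contrasts were chosen after the calls had been seen, because many regions changed between day 0 and day 2 or between day 3 and day 5. In the first, the 12 libraries of day 5, with and without XAV, were set against the 18 of days 0 to 3. Of the 364 regions, 11 (3.02%) were called more often at day 5, where 3.36% of all 3388 regions were, and 13 (3.57%) less often, where 3.22% were. Without the 3 large libraries the counts were 13 and 11. The day 5 libraries with and without XAV came from the same 6 lines, and these lines recur on the other side. With the line as a block, over lines sampled on both sides, 12 regions were called more often at day 5 and 2 less often.

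The pluripotency factor Pou5f1 (Oct4) was among the 11. Its region of 6943 bp had a peak in 0 of 18 libraries of days 0 to 3 and in 11 of 12 at day 5 (adjusted exact p = 0.000256 by the exact permutation test). The library without one was CM69 at day 5. In WT without XAV the peaks ranked at the 11.7th percentile in WT70 and the 18.6th in WT72, in KO at 24 in KO1 and 51.3 in KO15, and in MUT at 64.5 in CM59. With XAV they ranked at 69.2 and 66.9 in WT, 46.1 and 70.8 in KO and 21.2 and 82.4 in MUT. The adjusted p stayed between 0.000495 and 0.00418 when any 1 of the 8 lines was left out, and was 0.00847 with the line as a block and 0.078 with 704 peaks taken from every library.

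The other regions with 11 and 0 were Esrp1, an epithelial splicing regulator, and Fgr, a Src family kinase gene (adjusted exact p = 0.000256 each). Esrp1 had a median rank of 76.6 and was the 1 region of the 11 that passed with equal peak numbers (adjusted exact p = 0.000956). Cldn7, a tight junction claudin, and Arhgef19, a guanine nucleotide exchange factor, had a peak in 10 of 12 day 5 libraries and none before (adjusted exact p = 0.000539). Cyp27b1, which makes active vitamin D, had 9 and 0, the connexin gene Gjb1 8 and 0, and Gse1 8 and 0. In all, 8 of the 364 regions (2.2%) had a peak in at least 8 day 5 libraries and none before, compared with 16 (0.72%) of the listed regions. Of all regions with a peak in 2 to 29 libraries, 27 (0.797%) did. The cut-off of 8 libraries was not among the planned rules. The lists that the regions had to avoid came from KO against WT, so the choice favours calls that KO and WT share. Nothing is read from this difference. In the test of the same contrast, 3.02% of the 364 and 3.78% of the listed regions were called more often at day 5. At Gse1 only 5 of the 8 peaks reached the start site.

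Mdfi, a repressor of myogenic factors, was called in 11 of 12 day 5 libraries and 3 of 18 earlier ones (adjusted exact p = 0.00782). Dnmt3a, the de novo DNA methyltransferase gene, was called in 8 and 1 (adjusted exact p = 0.0174). Its day 5 peaks without XAV were in KO1, KO15 and CM59 and in neither WT line. With XAV they were in WT72 at the 2.45th percentile, in both KO lines and in both MUT lines. The proline transporter gene Slc6a7 had 9 and 3 (adjusted exact p = 0.0377), and did not pass without the 3 large libraries (adjusted exact p = 0.0637).

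Among the 13 called less often at day 5 were the regions of Pcdha4 with Pcdha5 (0 of 12 against 16 of 18, adjusted exact p = 0.000392) and Pcdha11 with Pcdha12 (0 against 13, 0.00512). Sox9 (0 against 12), C2cd2l, Oaf and Speg (0 against 11 each) and Ins2 (0 against 10) followed. Asmt, the last enzyme of melatonin synthesis, had 2 against 16, and Zfp46, a zinc finger gene, 1 against 13. Col26a1, a collagen gene, had a peak in all 18 earlier libraries and in 6 of 12 at day 5. With the cell line as a block 2 of the 13 passed, Pcdha4 with Pcdha5 and Asmt (adjusted exact p = 0.0112 each), and Sox9 did not (adjusted exact p = 0.139). With 704 peaks taken from every library, none of the 13 was among the regions that passed, these 2 included. The count of 13 was 8 without CM40 or KO15, 7 without KO1, 5 without WT70, 4 without CM59 or CM69 and 3 without WT72.

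The second added contrast set the 6 day 0 libraries against the 24 later ones. Of the 364 regions, 94 (25.8%) were called more often at day 0, where 15.1% of all 3388 regions and 12.2% of the listed regions were, and 3 (0.824%) less often, where 1.86% of all were. The 94 rest on the large libraries: without WT72, KO25 and CM40, 0 regions passed in either direction, with 27 and 10 at an unadjusted p under 0.05 and a smallest p of 0.00137, and with equal peak numbers 16 regions were called more often at day 0. With the line as a block, 0 regions passed in either direction, with 57 and 7 at an unadjusted p under 0.05 and a smallest possible p of 0.0004. Leaving out 1 line gave 15 without WT72, 21 without KO25, 22 without CM40, 41 without CM59, 45 without CM69 and 48 without KO1.

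Peaks at day 0 alone were found at 149 of the 364 regions (40.9%), compared with 247 (11.1%) of the listed regions. Of all regions with a peak in 2 to 29 libraries, 610 (18%) had this pattern. The 364 regions more often had a peak in only 2 to 4 libraries (54.4%, against 25.2% of the listed regions). The number of calls was not matched in this comparison. In 4 of the 149 regions all 6 day 0 libraries had a peak, the smaller ones included: Irs1, the adaptor of the insulin receptor, Chst3, a chondroitin sulfotransferase gene, Ncs1, a neuronal calcium sensor, and Clmp, an adhesion molecule. At Irs1 the ranks were 18.5 in WT70, 75.9 in WT72, 64.2 in KO15, 71.9 in KO25, 74.1 in CM40 and 47 in CM59, and no later library had a peak (adjusted exact p = 0.00196 by the exact permutation test). Each of the other 3 had the same counts and adjusted p, and without the 3 large libraries none of the 4 passed (adjusted exact p = 0.132), nor with the line as a block (0.0656). Only 2 of the 6 peaks at Chst3 reached the start site. Of the 149 regions, 18 (12.1%) were multi-copy, among them Gm3264 and Gm3488 on chromosome 14.

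Slc24a3, a cation exchanger gene, had a peak in all 6 day 0 libraries and 2 of 24 later ones (adjusted exact p = 0.00471), and Asic4, of the acid-sensing channel family, in 6 and 3 (0.0076). Efna5, an axon guidance ligand, had 5 and 1 (0.00965). Fgf5, a growth factor gene of the epiblast, had a peak in 5 of 6 day 0 libraries and in 1 later one, KO15 at day 5 with XAV.

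The 3 regions called less often at day 0 were Klf2, Gadd45b and Socs3. Klf2, a transcription factor of naive pluripotency, had a peak in 0 of 6 day 0 libraries and in 22 of 24 later ones (adjusted exact p = 0.00471 by the exact permutation test), the exceptions being CM69 at day 5 and CM59 at day 5 with XAV. The ranks of its peaks ran from 0.607 to 69.9 with a median of 40. Gadd45b, a stress-response gene, had 0 and 21 (adjusted exact p = 0.0076), with ranks above the 75th percentile in all 6 libraries of day 2. Socs3, the feedback inhibitor of LIF and STAT3 signalling, had 0 and 18 (adjusted exact p = 0.0204): all 6 libraries of day 2, the 4 KO and MUT ones of day 3, 2 of day 5 and all 6 of day 5 with XAV. The day 3 libraries without a peak at Socs3, WT70 and WT72, had the fewest peaks of that day. Klf2, Gadd45b and Socs3 had no peak in the large day 0 libraries either. With the line as a block the adjusted exact p was 0.0729, 0.08 and 0.0924. With equal peak numbers none of the 3 passed (adjusted exact p = 1, 0.0882 and 0.797).

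By role, the counts are read against all regions, of which 3.36% were called more often and 3.22% less often at day 5. At day 0, 15.1% of all regions were called more often. Among the 364 regions themselves the same shares were 3.02%, 3.57% and 25.8%. Whether any role group differed from these was not tested. Every day 0 call among the 364 regions was lost without the 3 large libraries or with the line as a block. With these limits, 1 homeobox or POU region (Pou5f1) was called more often at day 5 and none less often. Of 13 forkhead, Sox, T-box, GATA and zinc finger regions, 2 were called less often at day 5 and 2 more often and 1 less often at day 0. Of 11 ion channel regions 5 were called more often at day 0 and 1 more often at day 5. Of 37 adhesion, matrix and cytoskeleton regions, 4 were called less often and 1 more often at day 5, and 10 more often at day 0. Of 16 G protein regions, 6 were called more often at day 0, and of 14 transmitter and synapse regions 3.

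The effect of the catalytic mutation was asked by comparing the 10 MUT with the 10 WT libraries within time points. The MUT libraries did not enter the deposited lists, but the WT libraries did. Of the 298 regions in no list that could be tested, 0 passed in either direction, and of all 2946 tested 0 (0% called more often in MUT and 0% more often in WT). At an unadjusted p under 0.05, 0 of the 298 regions passed, and 7 and 5 of all. On simulated calls with 200 regions changed together, this contrast recovered 49% at rates of 0.9 and 0.1 and 0% at 0.7 and 0.3. Smaller sets of changed regions were not simulated, so 0 calls do not show that no region differed. The mean share with a peak was 26.2% in MUT and 25.8% in WT, a difference of 0.467 percentage points, which became -6.09 without CM40, -4.75 without WT70, 4.1 without CM69, 5.69 without WT72 and 5.88 without CM59. The number of libraries with a peak was higher in MUT at 111 regions, higher in WT at 91 and equal at 162.

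No single region passed after adjustment. Gm21188 with Gm36079, a multi-copy region, was called in 7 of 10 MUT and 2 of 10 WT libraries (exact permutation p = 0.0625, adjusted exact p = 1). Gdpd5, H2-Q7, Socs3 and Dnmt3a had counts of 8 and 4, 7 and 4, 7 and 4, and 4 and 1. In the other direction, Matn4, a matrix protein gene sharing a region with Rbpjl, was called in 5 MUT and 9 WT libraries (exact permutation p = 0.12, adjusted exact p = 1). The pancreatic peptide genes Ppy and Pyy had 3 and 7, and Cyp27b1 and Gjb1 1 and 4 each.

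The lines of a genotype were also read together at each time point, without a test. In both MUT lines and neither WT line, 0 of the 364 regions were called at days 0, 2 and 5 and at day 5 with XAV, against 0.104%, 0.235%, 2.04% and 0.104% of all regions. At day 3 there were 9 (2.47%), against 4.99% of all, among them Socs3, Gdpd5 and Pcdha4 with Pcdha5. WT70 and WT72 had the fewest peaks of the day 3 libraries (969 and 1135). In both WT lines and neither MUT line there were 0 at days 0 and 3, against 0% and 0.0522% of all, and 7 (1.92%) at day 2, against 1.99%. At day 5 there was 1, Matn4 with Rbpjl, against 0.183%. With XAV there were 9 (2.47%), against 0.888% of all, among them Matn4 with Rbpjl again, Cyp27b1, Gjb1 and Sox10, at a time point where the MUT line CM59 had the fewest peaks of any library.

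At day 5 without XAV the same region, Matn4 with Rbpjl, was the 1 called in both WT lines and neither KO line, against 0.366% of all regions. In the contrast that chose the regions, 17 (4.67%) were called in both KO lines and neither WT line, against 19.7% of all and 26.9% of listed regions, and nothing is read from this count. Among the 17 were Phf19, a subunit of Polycomb repressive complex 2, Dnmt3a, the progesterone receptor gene Pgr, Slc17a7, a vesicular glutamate transporter, Chl1, a neural adhesion molecule, and 6 multi-copy regions. Over all time points Phf19 had a peak in 9 KO, 4 WT and 3 MUT libraries. The KO count exceeded the WT count by 4 or more, or fell short by as much, at 12 regions (3.3%), compared with 311 listed regions (14%). The rule that chose the regions favours this difference, so nothing is read from it either.

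Inhibition of Wnt signalling by XAV was examined between the 6 libraries with and the 6 without it at day 5. Of the 135 regions in no list that could be tested 0 passed, and of all 2102 tested 0 (0% called more often with XAV and 0% more often without it), with 0 of the 135 and 11 and 3 of all at an unadjusted p under 0.05. This design cannot give an exact p below 0.00926. On simulated calls it recovered 0% of regions called in every XAV library and no other, so it could not have called a change. Sfi1 and Arid3c with Dctn3 had a peak in 4 of 6 XAV and 0 of 6 other libraries (exact permutation p = 0.0556 and 0.0833, adjusted exact p = 1). Socs3 and the kinase gene Tnik had one in 6 and 2. Ntsr1, the neurotensin receptor gene, had one in 1 and 5 and Rimbp3 in 0 and 3.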

How the data were processed

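H3K27me3 CUT&RUN was available for 30 libraries, and 30 IgG samples entered only through the authors' peak calling. Per the labels and the study's methods, the authors used Trim Galore for trimming, Bowtie for alignment to mm10 (GRCm38.p6) and Picard for deduplication, and SEACR called peaks per library against IgG, in stringent mode. The deposited peak values are a signal, the fragment coverage summed over a peak, without scaling for depth, and here they served only for ranks inside a library. The 4 region lists hold positions from DiffBind 3.0.15 (R 4.0.5), KO against WT. Labels of KO25 at days 0 and 2 name WT70 files in 1 field, and titles were followed.

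Peaks were merged with Python 3.11.15, NumPy 2.4.6 and pysam 0.24.0, and a region was called in a library by 1 bp of overlap. Promoters were those of 21866 GENCODE genes. Calls were compared by exact conditional permutation within strata, two-sided, with Benjamini-Hochberg adjustment over all regions with a peak in 2 or more, but not all, libraries of the contrast. The regions, gene lists and tests were chosen with earlier results of these data known. Named regions were up to 8 per direction over time, 6 for MUT and 4 for XAV by lowest p, up to 5 per role list by number of libraries, and those called in both lines of 1 genotype and neither of the other at day 5. Regions of the added contrasts and the sequences of Pou5f1, Klf2 and Irs1 were chosen after their values were seen, and 6 genes were taken off the role lists because a listed name pattern had matched them wrongly. On simulated calls, 200 regions were changed together. Full separation was recovered in 100% of them for time and for MUT against WT and 0% for XAV. Rates of 0.9 and 0.1 were recovered in 86% for days 0 and 2 against 3 and 5 and 49% for MUT against WT. Rates of 0.7 and 0.3 were recovered in 0% for every contrast. Smaller sets of changed regions were not simulated, so recovery of a single changed region is not known from this. The same lines were sampled with and without XAV, so lines pair these samples, and their deviations correlated at 0.116 in WT, 0.161 in KO and -0.234 in MUT over 3828 regions.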

Additional observations from a re-analysis of the deposited data

How the results depend on the processing

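Without the weakest peaks of each library (the lowest quartile by total signal), 222 regions met the rule in place of 364. The 12 regions called more often at days 0 and 2 became 3 with 969 peaks from every library, 7 with the stricter peaks, 30 with the day 5 XAV libraries on the late side, 0 with WT and MUT libraries alone, 0 with the replicate block of cell line, and 4 to 12 when 1 line was left out. The 2 called more often at days 3 and 5 became 8 with the XAV libraries, 0 with WT and MUT alone, 0 with the block, 1 without the 3 large day 0 libraries and 0 to 2 without 1 line. With WT and MUT alone no p could fall below 0.000408, and 25 and 2 regions had an unadjusted p under 0.05. The block changed no call for XAV. In the contrasts chosen after seeing the data it gave 12 more often and 2 less often called at day 5, and 0 and 0 at day 0. For the contrasts chosen after seeing the data, 11 regions were more often called at day 5. This count became 1 with 704 peaks from every library, 7 with stricter peaks and 9 to 12 without 1 line. The count of 13 less often called was 8, 7 and 3 to 9 under the same settings. None of the 13 was among the 8 called with 704 peaks. The 94 more often called at day 0 became 16 with 704 peaks, 50 with regions of 1 library added, 0 without the 3 large libraries and 15 to 93 without 1 line, and the 3 less often called became 5 with stricter peaks, 0 without the large libraries and 2 to 3 without 1 line. Pcdhb19 with Pcdhb20 turned direction at 704 peaks in day 0 against later (adjusted exact p = 1). The share with a peak at days 0 and 2 minus days 3 and 5 was 3.32 points with equal peaks and 14.1 to 22.2 without 1 line. That of MUT minus WT was -1.02 with equal peaks and -6.09 to 5.88 without 1 line. The cause was not tested, except that the 3 large libraries were left out and peak numbers were made equal.

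Libraries held 704 to 3466 peaks and their depth is unknown, so a peak that was not called is not shown to be absent. With 2 lines a group, and with 1 line of each KO and MUT pair exchanged from day 3 on, time and line cannot be told apart there.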
